A study of Mus musculus with 12 samples.

Results

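The 5 genes Ccl2, Ccl7, Ccl11, Ccl12 and Ccl8 lie side by side on mouse chromosome 11 and encode a cluster of CC chemokines. They were found by their symbols among the 52636 gene identifiers of the expression tables, and each symbol matched 1 identifier. Small interfering RNA against Klf4 (siKlf4) was followed by more Ccl2, Ccl7 and Ccl11 transcript in airway smooth muscle cells (SMCs). When each SMC library was left out in turn, Ccl11 passed the test in all 6 fits, Ccl2 in 4 and Ccl7 in 2. In lung PDGFR-β+ cells siKlf4 was followed by less Ccl7, whereas Ccl2 did not pass the test. The study compared these cultured mesenchymal cells to ask how the transcription factor KLF4 acts on downstream genes in each of them.

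Bulk RNA-seq covered 12 libraries, 3 for each of 4 groups: SMCs with scrambled control RNA (Scr), SMCs with siKlf4, PDGFR-β+ cells with Scr and PDGFR-β+ cells with siKlf4. The SMCs were commercial primary cells of C57BL/6 mice, called tracheal in the source label and airway in the sample titles, and the labels give no age for them. The PDGFR-β+ cells came from lungs that the labels describe as wild-type C57BL/6 and 12 weeks old, while the study's methods describe reporter-positive (Zs+) cells sorted from tamoxifen-induced Pdgfrb-CreERT2, ROSA26R(Zs/+) mice. In that model the Pdgfrb promoter drives the recombinase, so the sort holds whichever lung cells use this promoter, not a single cell type. Every culture received 50 nM siRNA for 6 h and was kept for 72 h. The study's methods name alternative transfection reagents and siRNA suppliers and do not say which cultures received which. Reagent and cell type may therefore coincide. Values are in TPM, a unit of transcript abundance in which reads are divided by transcript length and every library is scaled to the same total of 1000000, so levels can be set against each other between genes but the depth of a library is unknown. In bulk samples, fewer cells of a type and less RNA per cell cannot be told apart.

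CC chemokines are small secreted proteins that bind G protein-coupled receptors on leukocytes and direct their migration. Genes of this cluster arose by duplication and their products are best known for attracting monocytes, eosinophils and lymphocytes. Stromal cells such as smooth muscle cells and fibroblasts make them during inflammation, and Ccl2 with its receptor Ccr2 is a well-studied route of monocyte recruitment to injured lung.

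All members are transcribed from the forward strand of chromosome 11 (GRCm38, GENCODE M21). Ccl2 spans chr11:82035571-82037453, Ccl7 chr11:82045712-82047525, Ccl11 chr11:82057823-82062955, Ccl12 chr11:82101845-82103400 and Ccl8 chr11:82115185-82116799. Their starts lie 10141, 22252, 66274 and 79614 bp downstream of the Ccl2 start in that order. Gm17268, a gene model on the reverse strand that overlaps Ccl2, was listed at 0 TPM in all 12 libraries. The transcripts of Ccl2 and Ccl7 are 813 and 801 bases long, and across the 10 pairs of members the longest exact run that a pair shares is 23 bases, against a read length of 100 bp. The most alike pair was Ccl12 and Ccl8, with 62.3% identical bases in a global alignment of the transcripts.

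Promoter sequences from RefSeq (GRCm38.p6) were matched for 2 of the 5 members, Ccl12 and Ccl8. They are shown because no window was matched for the other members. These neighbours, the most alike in transcript sequence, also differed in whether transcript was measured in most libraries. Each line gives the 150 bases before the start on the forward strand, chr11:82101695-82101844 for Ccl12 and chr11:82115035-82115184 for Ccl8. Capitals mark TATAAA, and in Ccl12 also CACCC, the core bound by KLF family factors.
Ccl12: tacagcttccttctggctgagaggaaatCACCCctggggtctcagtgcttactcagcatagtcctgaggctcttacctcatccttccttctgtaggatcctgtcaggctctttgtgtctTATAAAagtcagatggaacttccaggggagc
Ccl8: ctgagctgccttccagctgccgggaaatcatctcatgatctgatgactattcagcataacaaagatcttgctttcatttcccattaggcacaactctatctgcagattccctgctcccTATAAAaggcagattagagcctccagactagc
The TATAAA match begins 31 bases before the start in Ccl12 and 32 bases before it in Ccl8, and 59.4% of the aligned columns of these stretches were identical. Within 250 bases before to 50 after each start, TATAAA on the strand of the gene occurred in 8.32% of all 32851 RefSeq windows of the same length, and CACCC on either strand in 57.5%. The Ccl8 window held no CACCC. Neither window held, on either strand, GGGCGG (SP family, in 35.7% of all windows), TGANTCA (AP-1, 7.81%), TAAACA (forkhead core, 13.4%), TTNNGNAA (C/EBP, 40.7%), GAAANNGAA (interferon response, 8.56%) or the kappa B consensus (8.46%). The matches did not overlap, and a match describes letters, not a bound site.

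Differences were tested with limma, a linear model that shares its estimate of the spread across genes, and were called at an adjusted p (Benjamini-Hochberg, over all genes tested) under 0.05. The target of the siRNA fell in both cell types. Klf4 measured 89.6, 96.3 and 95.03 TPM in Scr SMCs and 26.5, 16.3 and 18.8 TPM in siKlf4 SMCs, the first value of each group coming from the library whose column carries no replicate number. In PDGFR-β+ cells it measured 144, 146 and 134 TPM in the Scr libraries and 12.3, 13.8 and 12.8 TPM with siKlf4. The fall was larger in PDGFR-β+ cells, where siKlf4 left 9.16% of the Scr mean, than in SMCs, where it left 21.9% (interaction log2 1.19, adjusted p = 6.9e-04, limma).

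Libraries and markers set limits on these groups. The SMC libraries without a number stood apart: within each treatment they had the lowest TPM of Ccl2, Ccl7, Ccl11 and Ccl8, so SMC effects of the members are also given for the numbered libraries alone. Gm42418, a gene model that overlaps ribosomal RNA, took 18001 to 32323 TPM in Scr SMCs, 44405 to 57700 TPM in siKlf4 SMCs and 34778 to 63263 TPM in PDGFR-β+ cells, and its part in the results was not tested. Acta2, Tagln and Myh11, which encode contractile proteins, were present in both cell types but lower in Scr SMCs than in Scr PDGFR-β+ cells (log2 differences -1.69, -1.86 and -0.38). Of 9 smooth muscle markers tested for this difference, 5 were lower in Scr SMCs and 1, Mylk, was higher (2.27). Over all 13800 genes tested for it, 23.3% were lower and 24.4% higher. Myocd, the coactivator that defines differentiated smooth muscle, reached at most 0.213 TPM. Summed over 14 macrophage and leukocyte markers, the level was 4.66 to 7.35 TPM in SMCs, 29.4 to 30.4 TPM in Scr PDGFR-β+ cells and 18.9 to 23.0 TPM in siKlf4 PDGFR-β+ cells. Ptprc, the pan-leukocyte marker, never exceeded 0.266 TPM, and Marco and Cd3e were listed at 0 in all libraries. Sums over 8 endothelial markers ran from 6.20 to 12.1 TPM in SMCs and from 17.0 to 21.7 TPM in PDGFR-β+ cells, and those over 10 epithelial markers stayed at or below 1.46 TPM in all.

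Ccl2, the ligand of Ccr2 on inflammatory monocytes, rose most among the members in SMCs. Scr SMCs measured 25.2 TPM in the library without a number, 79.0 TPM in replicate 2 and 107 TPM in replicate 3. With siKlf4 the values were 213, 541 and 468 TPM in the same order, so every siKlf4 library lay above every Scr library. The mean went from 70.5 ± 41.7 to 407 ± 172 TPM (SD, n = 3), a log2 fold change of 2.63 on the log2(TPM + 1) scale (standard error, SE, 0.56, limma adjusted p = 0.0144). It was the 326th gene by mean TPM in siKlf4 SMCs, and the 2490th in Scr SMCs. Without siKlf4 replicate 2 the adjusted p was 0.0515 and without siKlf4 replicate 3 it was 0.0506 (limma), and the numbered libraries alone gave a log2 fold change of 2.44.

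In PDGFR-β+ cells Ccl2 measured 169, 132 and 152 TPM in the Scr libraries and 172, 150 and 154 TPM with siKlf4. The groups overlapped, and their log2 fold change was 0.076 and a 95% interval from -0.17 to 0.32 (adjusted p = 0.588, limma). The sign turned with median-ratio scaling of the libraries (-0.025) and without Scr replicate 2 (-0.015).

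Ccl7, which acts through Ccr1, Ccr2 and Ccr3 and also attracts monocytes, moved in opposite directions in the cell types. Scr SMCs held 107, 187 and 208 TPM and siKlf4 SMCs 251, 458 and 418 TPM, again with the library without a number first and lowest. These groups did not overlap, and the log2 fold change was 1.17 (SE 0.31, limma adjusted p = 0.0285). The call was lost with no filter on low values (adjusted p = 0.0763, limma), without the Scr library that has no number (0.0515), without Scr replicate 2 (0.0548), without siKlf4 replicate 2 (0.0891) and without siKlf4 replicate 3 (0.0869). In the numbered libraries alone the log2 fold change was 1.14.

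In PDGFR-β+ cells Ccl7 measured 125, 104 and 134 TPM in the Scr libraries and 90.7, 72.9 and 77.0 TPM with siKlf4. Every siKlf4 library lay below every Scr library. The mean fell from 121 ± 15.4 to 80.2 ± 9.29 TPM (SD, n = 3), 66.5% of the Scr level, with a log2 fold change of -0.58 (SE 0.12, limma adjusted p = 0.00747). This call held when each library was left out in turn, with adjusted p up to 0.0294, but not in a single fit over all 12 libraries, which gave 0.0894 (limma). The summed macrophage and leukocyte markers also fell in these libraries, and their part in the fall of Ccl7 was not tested.

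Ccl11, or eotaxin, the ligand of the eosinophil receptor Ccr3, was a low transcript that rose in SMCs. Its values were 1.92, 2.35 and 2.33 TPM in Scr SMCs and 3.99, 6.81 and 5.57 TPM in siKlf4 SMCs, without overlap. The log2 fold change was 0.99 (SE 0.18, limma adjusted p = 0.00899), and on this scale it understates the change of so low a gene, whose mean TPM was 2.48 times the Scr mean. The call held without each library in turn, with adjusted p up to 0.0361, and the numbered libraries alone gave a log2 fold change of 1.10. In PDGFR-β+ cells Ccl11 lay below the minimum mean of 1 TPM and was not tested: it measured 0.341, 0 and 0.498 TPM in the Scr libraries and 0.616, 0.0958 and 0.300 TPM with siKlf4.

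Ccl12, a mouse chemokine that also binds Ccr2, was listed at 0 in 11 of the 12 libraries. The exception was siKlf4 SMC replicate 3, at 0.182 TPM. It passed no filter and was not tested.

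Ccl8, which in mice binds Ccr8 and attracts T cells, did not pass the test in either cell type. In Scr SMCs it spread from 2.82 TPM in the library without a number to 19.3 and 26.7 TPM in replicates 2 and 3, and with siKlf4 it measured 25.3, 37.1 and 36.3 TPM. The groups overlapped by a single pair, the siKlf4 library without a number and Scr replicate 3. The log2 fold change of 1.37 (SE 0.68, limma adjusted p = 0.173) became 0.67 in the numbered libraries alone, where it passed the threshold (adjusted p = 0.0408, limma).

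In PDGFR-β+ cells Ccl8 measured 14.97, 8.995 and 25.2 TPM in the Scr libraries and 10.8, 5.58 and 5.71 TPM with siKlf4. Here the overlap came from siKlf4 replicate 1, which lay above Scr replicate 2. The log2 fold change was -1.004 with a 95% interval from -1.86 to -0.15 (adjusted p = 0.0628, limma). Its adjusted p was 0.0459 with quantile normalization, 0.0186 without Scr replicate 2 and 0.0393 without siKlf4 replicate 1 (limma).

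**Figure D1:**
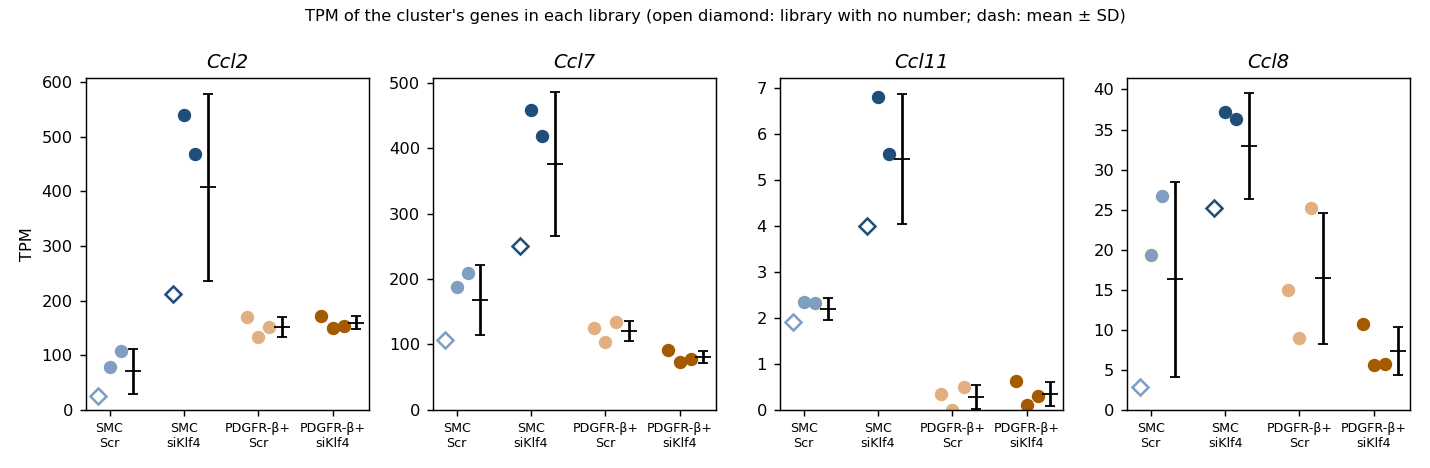
TPM of Ccl2, Ccl7, Ccl11 and Ccl8 in each of the 12 libraries by group, with a linear axis from 0 for each gene. Open diamonds are the SMC libraries without a replicate number, dashes with bars are the mean ± SD of 3 libraries, and the siKlf4 SMCs lie above the Scr SMCs for Ccl2, Ccl7 and Ccl11 without overlap. Ccl12, at 0 in 11 libraries, is not drawn.

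Counted together, 3 of the 4 members tested in SMCs rose and none fell, beside 15.6% of all 13709 genes tested that rose and 12.9% that fell. The same 3 members were higher without overlap, as were 25.6% of all genes tested. Of the 3 members tested in PDGFR-β+ cells, Ccl7 fell and none rose, beside 15.3% of the 13694 genes tested that fell and 25.3% that rose, and Ccl7 was the member lower without overlap, as were 19.8% of all genes. The median log2 fold change was 1.27 over the members tested in SMCs against 0.017 over all genes, and -0.58 over those in PDGFR-β+ cells against 0.097.

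For Ccl2 and Ccl7 the response to siKlf4 was not the same in SMCs and PDGFR-β+ cells. The interaction, the log2 effect in SMCs minus that in PDGFR-β+ cells, was 2.56 for Ccl2 (SE 0.64, limma adjusted p = 0.00975) and 1.75 for Ccl7 (SE 0.36, limma adjusted p = 0.0035). Both calls held without each library in turn and under all 9 other settings, with adjusted p up to 0.0257. For Ccl8 the difference was 2.38 with a 95% interval from 0.49 to 4.27 and an adjusted p of 0.0536 (limma). It was 1.67 in the numbered SMC libraries (adjusted p = 0.0411, limma). Thus 2 of the 3 members tested for this difference were higher in SMCs, beside 14.5% of all 13032 genes, and none was lower, beside 18.5%.

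**Figure D2:**
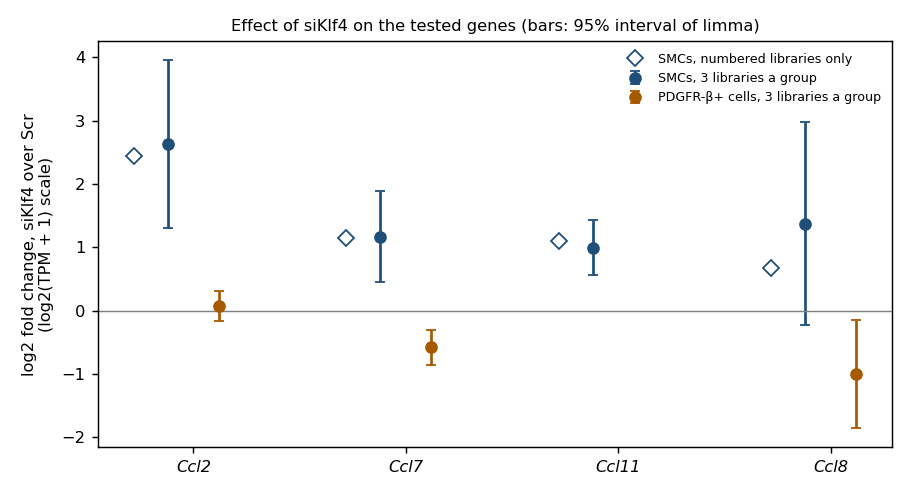
Log2 fold change of siKlf4 over Scr on the log2(TPM + 1) scale for the tested members in either cell type, with the 95% interval of limma as bars. Open diamonds give SMCs from the numbered libraries alone, where Ccl8 is at 0.67 in place of 1.37. For Ccl7 the intervals of the cell types lie on opposite sides of 0.

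Levels of the members without siKlf4 were also compared between the cell types. Cell type, source, culture history and table coincide in this comparison and cannot be told apart. Ccl2 was lower in Scr SMCs, at 70.5 TPM against 151 TPM, with a log2 difference of -1.31 (SE 0.46, limma adjusted p = 0.0476). This call was near its threshold and was lost under 5 of 7 other settings, with adjusted p up to 0.116, and in 4 of the 6 fits that left out a library. Without the Scr SMC library that has no number the difference was -0.70 (adjusted p = 0.0132, limma). Ccl11 measured 1.92 to 2.35 TPM in Scr SMCs and 0 to 0.498 TPM in Scr PDGFR-β+ cells. It reached the minimum mean of 1 TPM through the SMCs alone, so no test of this difference is given, and its fitted size depends on the pseudocount, with a log2 value of 1.34 at 1 TPM and 2.94 at 0.1 TPM. Ccl7, by 0.42 (adjusted p = 0.181), and Ccl8, by -0.32 (adjusted p = 0.737, limma), did not pass, but in the numbered SMC libraries Ccl7 was higher by 0.71 (adjusted p = 0.00475, limma). Among Ccl2, Ccl7 and Ccl8 none was higher in SMCs and 1 was lower, beside 24.4% and 23.3% of all 13800 genes.

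Within each group the order of the levels changed at the top only. In Scr SMCs the order by mean TPM was Ccl7, Ccl2, Ccl8, Ccl11 and Ccl12. Ranges of Ccl7 and Ccl2 overlapped slightly there, as did those of Ccl2 and Ccl8, although Ccl7 was above Ccl2 in all 3 libraries. In siKlf4 SMCs Ccl2 came first, with 407 TPM against 376 TPM for Ccl7, and the ranges overlapped. In PDGFR-β+ cells Ccl2 was first in both treatments. It overlapped with Ccl7 under Scr, and the ranges separated under siKlf4, at 150 to 172 TPM against 72.9 to 90.7 TPM.

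Summed over the members, the cluster gave 137, 288 and 345 TPM in Scr SMCs and 493, 1043 and 928 TPM in siKlf4 SMCs. The lowest siKlf4 library was above the highest Scr library. The mean rose from 256 ± 108 to 821 ± 290 TPM (SD, n = 3), a ratio of 3.20, with a two-sided exact permutation p of 0.1, the smallest that 3 against 3 libraries allow. The mean difference of log2 sums was 1.71, and 1.64 without the libraries that lack a number. In PDGFR-β+ cells the sums were 309, 245 and 311 TPM in the Scr libraries and 275, 229 and 237 TPM with siKlf4. These groups overlapped, with a ratio of 0.856 (exact permutation p = 0.2).

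Ccl2 and Ccl7 made up nearly all of that sum in every library. In Scr SMCs Ccl2 was 18.5% of the sum in the library without a number, 27.5% in replicate 2 and 31.1% in replicate 3, and with siKlf4 its share was 43.2%, 51.9% and 50.4%. In PDGFR-β+ cells it was 54.8%, 54.1% and 48.8% with Scr and 62.8%, 65.7% and 64.99% with siKlf4. So the Ccl2 share was higher with siKlf4 in both cell types without overlap. Ccl8 held between 2.07% and 8.10% and Ccl11 at most 1.404%.

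**Figure D3:**
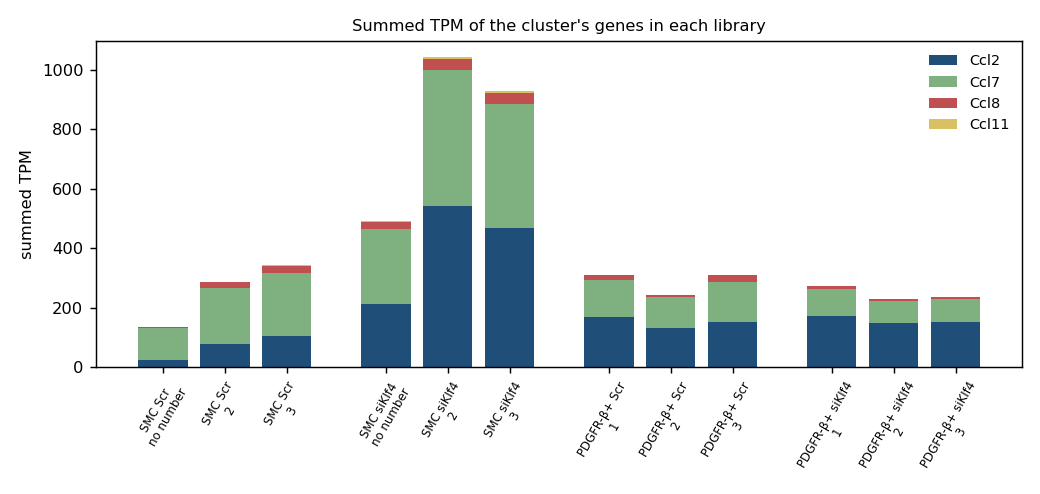
Summed TPM of the members in each library, stacked by gene from 0, with the libraries of a group side by side and the SMC libraries without a number first in their groups. The siKlf4 SMC bars reach 493 to 1043 TPM, and Ccl2 takes a larger part of the bar with siKlf4 in both cell types.

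Ratios between members of the same library do not change with the scaling of that library, and they were computed after the values had been seen. The log2 ratio of Ccl2 to Ccl7 was -2.08, -1.24 and -0.96 in Scr SMCs and -0.24, 0.24 and 0.16 in siKlf4 SMCs. In PDGFR-β+ cells it was 0.44, 0.35 and 0.19 with Scr and 0.93, 1.04 and 1.00 with siKlf4. All siKlf4 libraries were above all Scr libraries of their cell type. The shift was 1.48 in SMCs (SE 0.37), or 2.79 times in linear terms (1.30 on the log2 scale in the numbered libraries), and 0.66 in PDGFR-β+ cells (SE 0.083), or 1.58 times. Ccl2 thus gained on Ccl7 in SMCs while both rose, and in PDGFR-β+ cells while Ccl7 fell and Ccl2 did not pass the test.

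The ratio of Ccl2 to Ccl8 shifted by 1.14 in SMCs, with overlapping groups, and by 1.18 in PDGFR-β+ cells, without overlap. That of Ccl7 to Ccl8 shifted by -0.34 and 0.52 with overlap in both. Permuting treatments within cell types over all 400 arrangements gave an exact two-sided p of 0.005 for Ccl2 to Ccl7, the smallest the design can give, 0.01 for Ccl2 to Ccl8 and 0.865 for Ccl7 to Ccl8. Adjusted over these 3 ratios the exact permutation p-values were 0.015, 0.015 and 0.865. Because the ratios were picked after the values had been seen, these p-values are a description and not a test.

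**Figure D4:**
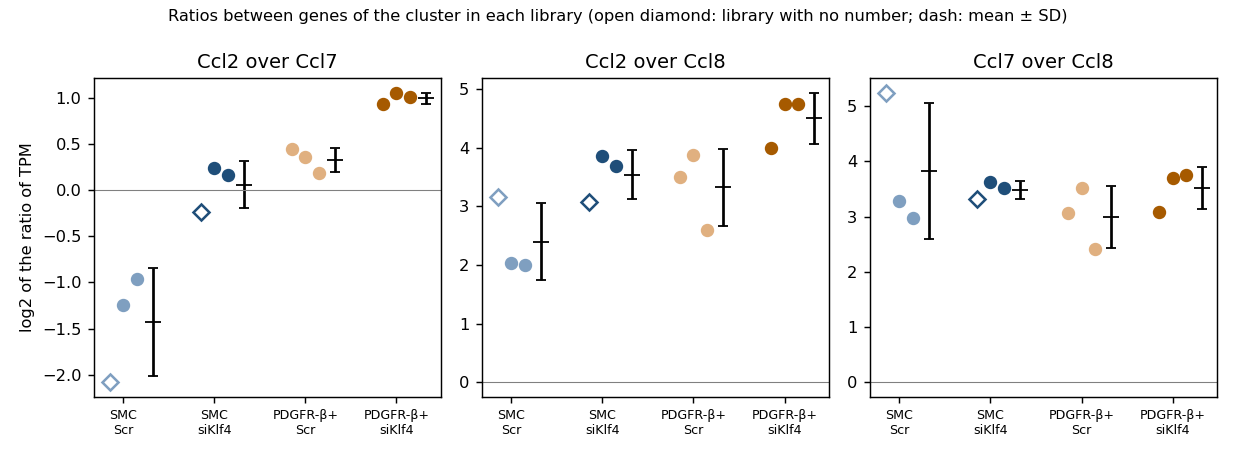
Log2 of the ratio of TPM between pairs of members in each library, by group, with open diamonds for the SMC libraries without a number and dashes with bars for the mean ± SD of 3 libraries. For Ccl2 over Ccl7 the siKlf4 libraries sit above the Scr libraries in both cell types, with shifts of 1.48 and 0.66.

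Receptors of these ligands were at or near 0 in both cultures. Ccr2 and Ccr8 were listed at 0 in all 12 libraries. Ccr1 reached at most 0.414 TPM and Ccr3 0.170 TPM, and the scavenging receptors Ackr1 and Ackr2 reached 0.234 and 0.205 TPM. Of 15 CC and atypical receptors only Ackr3, which takes up Cxcl12 and is no receptor of this cluster, was tested. It fell in SMCs from 40.4 to 50.3 TPM with Scr to 23.5 to 26.6 TPM with siKlf4 (log2 -0.89, adjusted p = 0.00222, limma), and in PDGFR-β+ cells from 24.2 to 27.8 TPM to 3.44 to 5.18 TPM (log2 -2.37, adjusted p = 2.6e-05, limma).

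Of 16 CC chemokine genes encoded outside the cluster, 5 were tested in SMCs, where none rose and 2 fell, beside 15.6% and 12.9% of all genes. Those that fell were Ccl9 (log2 -1.13, adjusted p = 0.0164, limma) and Ccl27a (log2 -0.74, adjusted p = 0.0175, limma). In PDGFR-β+ cells 4 were tested, of which 1 rose and none fell, beside 25.3% and 15.3% of all genes. The gene that rose was Ccl5, a chemokine for T cells and monocytes. It went from 1.18 to 2.36 TPM with Scr to 92.9 to 107 TPM with siKlf4 (log2 5.21, adjusted p = 3.3e-06, limma). In SMCs Ccl5 measured 0.335 to 1.81 TPM and 2.25 to 3.61 TPM, which did not pass (adjusted p = 0.0686, limma).

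Among genes that carry inducing signals to Ccl2, the cytokines Tnf, Il1a, Il1b and Ifng were listed at 0 in all libraries. Of 25 inducers and receptors on the list, 19 were tested in SMCs, with 4 higher and 1 lower, and 20 in PDGFR-β+ cells, with 5 higher and 6 lower. For these and the lists that follow, the shares over all genes tested were 15.6% higher and 12.9% lower in SMCs and 25.3% higher and 15.3% lower in PDGFR-β+ cells. Tgfb1, which encodes transforming growth factor β1, rose in SMCs (log2 0.93, adjusted p = 0.00559, limma) and fell in PDGFR-β+ cells (log2 -0.85, adjusted p = 1.1e-04, limma). The receptor gene Il1r1 went the other way, at -0.73 in SMCs (adjusted p = 0.017, limma) and 0.50 in PDGFR-β+ cells (adjusted p = 0.014, limma). Ifngr2 (0.50 and -0.27) and Il6ra (0.41 and -0.44) passed in both and moved as Tgfb1 did. These receptor genes were named after their values had been seen. Ifnb1, the interferon-β gene, was at 0 in Scr PDGFR-β+ cells and in all SMCs and at 3.16 to 5.19 TPM in siKlf4 PDGFR-β+ cells. It is counted among the 5 higher in PDGFR-β+ cells, where it reached the minimum mean of 1 TPM through the siKlf4 group alone. In those cells Tlr3, a sensor of double-stranded RNA, rose by a log2 of 1.41 and the adaptor Myd88 by 0.79.

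NF-kB proteins bind promoters of inflammatory genes such as Ccl2. All 14 listed subunits and feedback genes were tested in both cell types, with 4 higher and 2 lower in each, near the shares over all genes in PDGFR-β+ cells. Tnfaip3, a feedback inhibitor, rose in both (log2 0.95 in SMCs and 1.27 in PDGFR-β+ cells), and the nuclear cofactor Bcl3 fell in both (-0.57 and -1.02). In PDGFR-β+ cells Nfkb1 rose by 0.55 and the kinase subunit Ikbkg fell by 1.16 on the log2 scale, while in SMCs their log2 values of 0.21 and -0.0066 did not pass. The kinase gene Chuk (0.45) and the subunit genes Rel (0.36) and Rela (0.28) also rose in SMCs, and Nfkbiz fell there (-0.33). Rel (0.35) and Nfkbiz (0.39) rose in PDGFR-β+ cells, where Chuk and Rela did not pass. Chuk, Rel, Rela and Nfkbiz were named after their values had been seen.

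Of 13 AP-1 and C/EBP factors, 12 were tested in SMCs, with 2 higher and 1 lower, and 11 in PDGFR-β+ cells, with 1 higher and 2 lower. Fosl1, a subunit of AP-1, rose in SMCs (log2 0.93) with an interaction of 0.93 (adjusted p = 0.0258, limma), and Cebpg rose there too (0.31) while Cebpa fell (-0.44). In PDGFR-β+ cells Atf3 rose (0.92) and Cebpg fell (-0.35).

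Chemokine transcripts are turned over by proteins that bind AU-rich and stem-loop elements. All 13 listed decay and stability factors were tested, with 3 higher and 1 lower in SMCs and 5 higher and 1 lower in PDGFR-β+ cells. Zfp36l1, which promotes decay, fell in SMCs (log2 -0.39) and rose in PDGFR-β+ cells (1.08). Elavl1, known to stabilise such transcripts, rose in SMCs (0.90), Rc3h2, known to degrade them, rose in PDGFR-β+ cells (0.93), and Hnrnpd rose in both (0.54 and 0.64). Other factors that promote decay did not move in a single direction. Rc3h1 was higher in SMCs (0.47) and Zfp36l2 lower in PDGFR-β+ cells (-0.58), opposite to Zfp36l1. Zfp36 (0.38) and Zc3h12c (0.56) were higher in PDGFR-β+ cells, the same way as Zfp36l1. These other factors were named after their values had been seen.

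Markers of the cells themselves moved as well, and their part in the results for the cluster was not tested. In SMCs 7 of 9 tested smooth muscle markers rose, against 15.6% of all genes, and none fell, among them Myh11 (log2 1.57), Acta2 (1.01) and Smtn (0.84). In PDGFR-β+ cells 4 rose and 3 fell. Those that rose were Mylk (1.05), Myh11 (0.66), Lmod1 (0.58) and Smtn (0.31), and those that fell were Des (-0.82), Tagln (-0.54) and Acta2 (-0.29). Des reached the minimum mean through the Scr group, at means of 2.08 TPM with Scr and 0.756 TPM with siKlf4. Lmod1, Des and Tagln were named here after their values had been seen. Of the mesenchymal and mural markers 5 of 10 fell in SMCs and 4 of 9 in PDGFR-β+ cells, against 12.9% and 15.3% of all genes, and none rose. These included Cspg4 (-0.53 and -1.97), Thy1 (-0.53 and -0.50), Col3a1 in SMCs (-1.05) and Col1a1 in PDGFR-β+ cells (-0.63). The macrophage genes Csf1r (-0.87) and Lyz2 (-0.71) fell in PDGFR-β+ cells, where Csf1r reached the minimum mean through the Scr group, and Cd68, the remaining marker of that list tested there, had a log2 value of 0.20 (limma adjusted p = 0.29). The endothelial receptor gene Kdr rose in SMCs (1.22), and so did Tek in PDGFR-β+ cells (0.60). Kdr had a mean of 0.663 TPM in Scr SMCs and reached the minimum mean there through the siKlf4 group.

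Along chromosome 11, the annotation places 21 protein-coding genes with a start within 1 Mb of the Ccl2 start, of which 16 are not members. Of these, 8 were tested in each cell type, all of them 729 kb or more downstream, and no gene was tested on the upstream side. The nearest tested genes were Zfp830 and Lig3, which lie 729 and 746 kb from the Ccl2 start. Zfp830 had log2 values of 0.25 in SMCs (adjusted p = 0.155, limma) and 0.31 in PDGFR-β+ cells (adjusted p = 0.0279), and Lig3, a DNA ligase gene, had 0.30 (adjusted p = 0.0509) and 0.48 (adjusted p = 0.00364, limma). In SMCs 2 of the 8 rose, Slfn9 and Slfn8 of the interferon-induced Schlafen family (1.00 and 1.05), and Slfn5 fell (-0.77), beside 15.6% and 12.9% of all genes. In PDGFR-β+ cells 7 of the 8 rose, with Slfn8 at 4.22, and none fell, beside 25.3% and 15.3% of all genes. Among those that rose, Slfn5 reached the minimum mean through the siKlf4 group, at means of 0.994 TPM with Scr and 6.44 TPM with siKlf4. The Schlafen genes were named after their values had been seen.

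**Figure D5:**
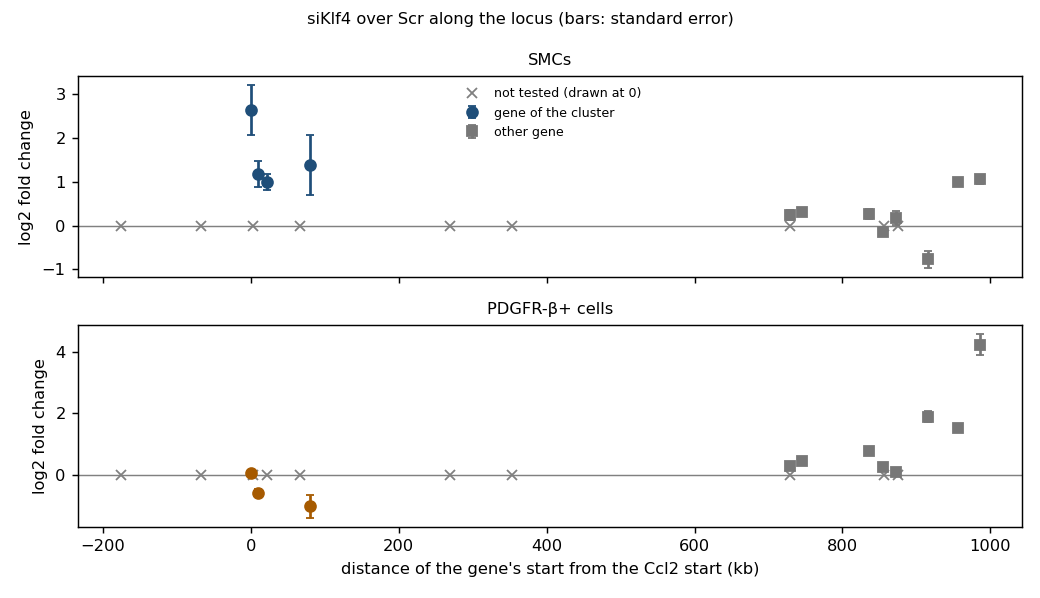
Log2 fold change of siKlf4 over Scr for the protein-coding genes within 1 Mb of the Ccl2 start, by the distance of their starts in kb, with standard errors as bars, in SMCs above and PDGFR-β+ cells below. Coloured circles are members, grey squares other tested genes and crosses genes not tested, drawn at 0. The 8 other tested genes all lie 729 kb or more downstream.

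Over the 12 libraries, the genes whose profile was closest to that of Ccl2 were Akr1c18, Prl2c2, Lif, Ptgs2 and CT010467.1. Closeness was the root mean square difference of log2(TPM + 1), each gene taken minus its own mean, among 13031 genes whose mean reached 1 TPM in each cell type. The distances ran from 0.46 for Akr1c18 to 0.62 for CT010467.1, against a median of 1.11 over all these genes. Ccl8 ranked 158th, at 0.84, and Ccl7 ranked 510th, at 0.91. Ptgs2, the inducible cyclooxygenase gene, went from 32.4 to 246 TPM in SMCs and from 205 to 140 TPM in PDGFR-β+ cells. Lif, which encodes leukemia inhibitory factor, went from 3.48 to 14.0 TPM and from 7.56 to 14.1 TPM. Prl2c2 belongs to a family of near-identical copies, so its value is uncertain. The points share libraries and treatment, and the ranking is a description.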

How the data were processed

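Libraries were made with a strand-specific kit and read at 100 bp. The authors aligned trimmed reads to mm10 with HISAT2 and deposited TPM estimated by StringTie and ballgown, in 1 table per cell type, unpooled. Whether strand was used is not given in the sources used here. DESeq2 was the authors' test, on counts not analysed here. All sample columns were mapped to a group, but the SMC columns without a number could not be mapped to a single sample. Their names also have another form than those of the numbered SMC columns, and what this marks is not given. TPM keeps no depth, so precision rests on 3 libraries per group, which the study calls independent experiments.

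Values as log2(TPM + 1) were fitted with limma 3.58.1 in R 4.3.3 (lmFit, eBayes with trend) where a gene's mean reached 1 TPM, two-sided, with Benjamini-Hochberg adjustment over all genes tested and a threshold of 0.05: per cell type, as an interaction over 12 libraries, and over the Scr libraries. The fits were tested on simulated data. Single values were compared by exact permutation. Identifiers matched GENCODE M21 with the same version for 49035 genes.

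Members, 11 gene lists and tests were chosen with earlier results of these data known. Named genes were the members, Klf4, their receptors, up to 4 genes per list past the threshold with the largest change, the nearest 2 tested genes on each side within 1 Mb, and the 5 genes most like Ccl2. Alternatives covered the pseudocount, filters, scalings, trend, a single fit, a replicate block, a naming term, the numbered SMC libraries and leaving out each library. Some listed genes are not reported here. The ratios and TATAAA were added after the data were seen.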

Additional observations from a re-analysis of the deposited data

Results flagged for a closer look

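The siKlf4 effect differed between the cell types, by the interaction term of limma, for 23 of the 39 named genes that could be tested for it. Over all 13032 genes 14.5% were higher and 18.5% lower, but most of the named genes had been picked for a large change in a cell type, so a high count was built in. The values are the log2 effect in SMCs minus that in PDGFR-β+ cells. Among the members they were 2.56 for Ccl2 and 1.75 for Ccl7, whose effects were 1.17 in SMCs and -0.58 in PDGFR-β+ cells, and the target Klf4 gave 1.19. Other differences above 0 were Ptgs2 3.43, Tgfb1 1.78, Kdr 1.50, Ackr3 1.49, Cspg4 1.45, Acta2 1.30, Ikbkg 1.16, Fosl1 0.93, Myh11 0.91, Elavl1 0.81, Cebpg 0.65 and Smtn 0.52. Of these, Kdr reached the minimum mean in SMCs through the siKlf4 group. Differences below 0 were Ccl5 -4.33, Zfp36l1 -1.47, Tlr3 -1.38, Col3a1 -0.92, Mylk -0.90, Ccl9 -0.89, Myd88 -0.83 and Rc3h2 -0.74. In 9 of the 23 the fitted effects had opposite signs in the cell types, which does not say that each effect passed its own test. Groups of 3 libraries were too small to test single libraries as outliers.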

How the results depend on the processing

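Ccl2 and Ccl7 kept their sign in SMCs under every setting, and their differences between the cell types passed the threshold under all of them. In SMCs Ccl7 did not pass with no filter (1.17), and Ccl8 passed in the numbered libraries (0.67). For PDGFR-β+ cells, Ccl2 turned to -0.025 with median-ratio scaling, Ccl7 did not pass in the single fit (-0.58), and Ccl8 passed with quantile normalization (-1.13). The difference for Ccl8 passed with the naming term (2.38) and in the numbered libraries (1.67). The control difference of Ccl2 did not pass with a pseudocount of 0.1 (-1.33), no filter (-1.31), median-ratio scaling (-1.32), quantile normalization (-1.30) or no trend (-1.31), that of Ccl7 passed in the numbered libraries (0.71), and that of Ccl8 turned to 0.56 there. The causes were not tested.

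With each library left out in turn, the log2 effects in SMCs ran from 2.03 to 3.05 for Ccl2, from 0.88 to 1.44 for Ccl7, from 0.84 to 1.17 for Ccl11 and from 0.50 to 1.92 for Ccl8. In PDGFR-β+ cells they ran from -0.015 to 0.16 for Ccl2, from -0.69 to -0.50 for Ccl7 and from -1.35 to -0.65 for Ccl8. Differences ran from 1.95 to 2.97 for Ccl2, from 1.46 to 2.02 for Ccl7 and from 1.50 to 2.93 for Ccl8, and control differences from -1.73 to -0.70 for Ccl2, from 0.24 to 0.71 for Ccl7 and from -0.87 to 0.56 for Ccl8, where 0.031 was the value without PDGFR-β+ Scr replicate 3.

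Deviations of same-numbered PDGFR-β+ libraries correlated at 0.073, -0.016 and 0.0043 over all genes, which gave no pairing by this measure, and the numbered SMC pairs at 0.11. Gm42418, at 34778, 49579 and 63263 TPM in Scr replicates 1 to 3 and 35974, 48907 and 62541 TPM in the siKlf4 replicates, did follow the number in PDGFR-β+ cells. The fit with the replicate number as a block also left out the SMC libraries without a number. There the difference for Ccl8 was 1.67 (adjusted p = 0.0446, limma), as it was in the numbered libraries with no block (0.0411), and Ccl8 in SMCs was at 0.67 (adjusted p = 0.0506 with the block and 0.0408 without it, limma). No other call of a member changed with the block. Ccl12 gave no testable value, and Ccl11 none with a minimum mean of 5 TPM.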
